A study of Bos taurus with 18 samples.

Results

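Of 27607 bovine gene identifiers, 85 (0.308%) were expressed in serum growth medium and fell steeply in differentiating cells both with and without serum. They were chosen on measured levels: a mean of at least 5 counts per 1000000 counts of a library (CPM) in serum growth medium, a mean after serum-based differentiation of at most 1/8 of that level, and a mean after serum-free differentiation of at most 1/4 of the level in serum-free growth medium. A mean of at least 5 CPM in serum growth medium was reached by 10376 genes, and 258 of these met the 1/8 limit. The serum-free limit was then met by 85, which is 32.9% of the 258, and missed by 173.

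Poly(A) RNA had been sequenced from satellite cells, the muscle stem cells, of Belgian Blue cattle, a double-muscled breed, in a study of serum-free media for cultured meat. DM cells had spent 72 h in differentiation medium with 2% fetal bovine serum (FBS), and GM cells, from which they came, were sampled at 0 h in growth medium with 20% FBS. SFDM cells had been differentiated for 72 h without serum in a medium based on DMEM/F-12, DMEM cells for 72 h in its DMEM-based version, and SFB cells had been held for 72 h in the serum-free base medium. All 3 came from cells in serum-free growth medium (SFGM), sampled at 0 h. Each of the 6 groups had 3 replicates, A to C, called biological by the labels, which do not say whether the letters are animals, cultures or days. All groups shared the breed and cell type, and no GM or SFGM cells were sampled at 72 h, so the medium and the time in culture cannot be told apart.

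Satellite cells multiply in medium rich in growth factors. When these are withdrawn, they leave the cell cycle and fuse into multinucleated myotubes, and genes for DNA replication, chromosome segregation and growth factor signalling are commonly turned down as they do so. A differentiated culture usually keeps some undifferentiated cells that still divide. Whether the 85 genes belong to such pathways was not examined, because no gene names could be matched to the identifiers, and the satellite cell label was not checked against its markers for the same reason. The genes are therefore described by their behaviour, with 4 identifiers as examples. Libraries held 16162525 to 28589018 counts, of which 12335 to 282933 fell on the 85 genes. In bulk RNA, fewer cells of a type and less RNA per cell cannot be told apart.

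The summed level of the 85 genes separated the 6 media. They took up 0.0537%, 0.0548% and 0.0536% of all counts in the DM libraries A, B and C, against 1.0%, 0.983% and 0.993% in the GM libraries. Their share was 0.125%, 0.128% and 0.127% in SFDM, 0.0903%, 0.0883% and 0.0892% in DMEM, and 0.202%, 0.213% and 0.216% in SFB, against 0.884%, 0.873% and 0.892% in SFGM. No library of any group overlapped with those of another group. The mean share in DM was 18.4 times below that in GM, and the means in SFDM, DMEM and SFB were 6.96, 9.89 and 4.20 times below that in SFGM. The DM, GM, SFDM and SFGM libraries chose the genes, so their distances are a description of the choice. The SFB and DMEM libraries played no part in it.

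**Figure D1:**
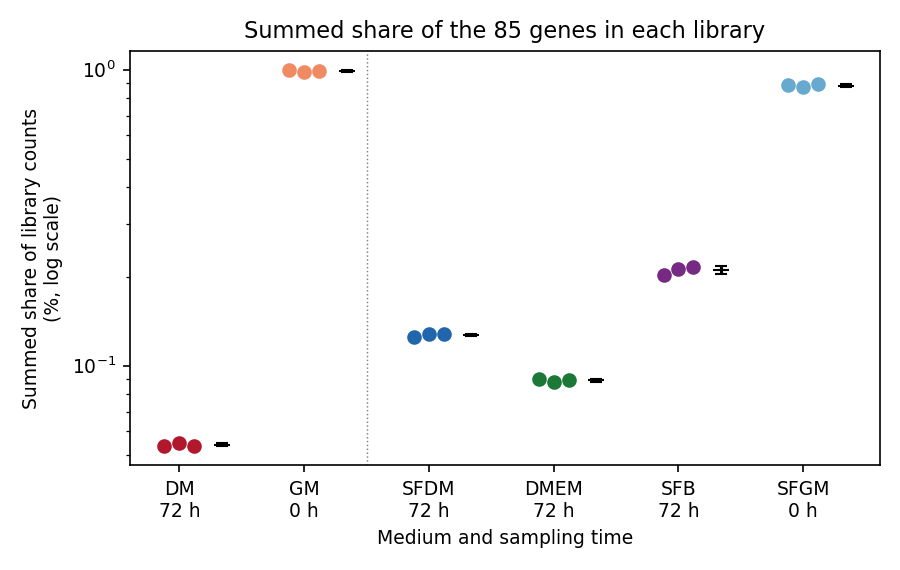
Summed share of library counts taken by the 85 genes (vertical axis, percent, log scale) in each of the 18 libraries, by medium and sampling time. Points are libraries A, B and C from left to right, and the black mark beside them is the mean ± SD (n = 3). SFB is the highest of the 72 h groups, at 0.210%, and DM the lowest, at 0.0540%.

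The genes with the most reads kept a similar part of the summed level in every medium. The 10 with the most reads in GM held 65.1% of the level of all 85 in DM, against 70.1% in GM. They held 66.4% of it in SFDM, 60.5% for DMEM and 68.1% for SFB, against 67.3% in SFGM. Gene lengths were not used here, so these are shares of reads and not of transcripts. The median level of the 85 was 1.38 CPM in DM, against 24.0 in GM. It was 2.58 CPM in SFDM, 1.78 in DMEM and 3.77 in SFB, against 19.9 in SFGM. A mean below 1 CPM was found for 33 genes in DM, against 0 in GM, and for 31 genes in SFDM, 29 with DMEM and 24 with SFB, against 4 in SFGM. In each of the 72 h groups 2 genes had no count in any library, where 3 counts over a group would be 0.0391 CPM (DMEM) to 0.0457 CPM (SFDM). This floor covers counting error only.

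The gene with the most reads of the 85 shows the scale of the fall. It stood at 93.5, 97.3 and 116 CPM in DM, against 1434, 1425 and 1658 in GM. In the serum-free arm it stood at 202, 209 and 182 CPM in SFDM, 304, 263 and 238 in DMEM, and 265, 277 and 387 in SFB, against 1989, 1955 and 2202 in SFGM. Its DMEM and SFB libraries overlapped, while both lay far below the SFGM libraries. The gene with the next most reads behaved otherwise in DMEM. It had 40.4, 44.7 and 40.5 CPM in DM, against 1050, 1025 and 967 in GM, and 130, 128 and 138 CPM in SFDM, 44.8, 45.8 and 54.8 in DMEM and 244, 251 and 235 in SFB, against 685, 677 and 669 in SFGM. Here the lowest DMEM library, at 44.8 CPM, was level with the highest DM library, at 44.7 CPM, and SFB was the highest of the 72 h groups.

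The limits of the choice cut through a continuous range. The lowest GM mean among the 85 was 5.003 CPM, and the nearest gene that failed on this limit alone had 4.956 CPM. The genes nearest to the DM limit of 12.5% of GM stood at 12.07%, 11.98% and 11.72% inside it, and at 12.7%, 12.9% and 13.1% outside it. Those nearest to the SFDM limit of 25% of SFGM stood at 24.98%, 24.94% and 24.86% inside it, and at 25.4%, 25.5% and 25.5% outside it.

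The genes did not start from the same level without serum. The SFGM mean was below the GM mean for 70 of the 85 and above it for 15, with a median of 71.0% of GM and a range from 2.47% to 3018%. In 9 genes SFGM was already at or below 1/4 of GM, with medians of 1.75 CPM in SFGM and 13.0 CPM in GM. A further 14 stood above 1/4 and at or below 1/2 of GM, and 47 between 1/2 of GM and GM. At the lower extreme, 1 gene had 0.413, 0.350 and 0.632 CPM in SFGM, against 19.1, 17.8 and 19.8 in GM, and no count in any SFDM, DMEM or SFB library. At the upper extreme, another had 270, 269 and 242 CPM in SFGM, against 8.48, 9.20 and 8.19 in GM. That gene fell to 24.1, 23.6 and 23.3 CPM in SFDM and to 47.2, 47.5 and 47.2 in DMEM, and stood at 46.7, 50.4 and 50.8 in SFB, so that its levels after serum-free differentiation all exceeded those in GM. Both GM and SFGM entered the choice, and these levels were not tested.

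The levels at 72 h are given here for genes grouped by their starting level. The 47 genes between 1/2 of GM and GM had medians of 15.8% of GM in SFDM, 6.17% in DMEM and 23.2% in SFB, beside 5.48% in DM. The 9 genes that started lowest had medians of 0.660%, 0.892% and 1.04% of GM in SFDM, DMEM and SFB, beside 3.87% in DM. The 15 that started above GM had medians of 9.75%, 13.0% and 18.3%, beside 6.80% in DM. The SFDM limit was set relative to SFGM, so a gene that started low in SFGM was bound to be low in SFDM as percent of GM, and the starting and end levels share GM as their denominator. These divisions were made after the levels were seen and are descriptions.

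SFB and DMEM cells were then compared with SFGM cells. This asks whether the genes also came down in the base medium and in the DMEM-based differentiation medium. All 85 genes fell in SFB and 84 of 85 fell in DMEM (edgeR quasi-likelihood test, Benjamini-Hochberg adjusted p under 0.05 over 14637 genes), and 0 rose in either, also at an unadjusted p under 0.05 and with DESeq2, while 28.6% of all genes tested rose in SFB and 32.1% in DMEM. The exception in DMEM was ENSBTAG00000021190, which had an unadjusted p of 0.142. Falls were called for 29.9% of all genes tested in SFB and 31.3% in DMEM, and for 35.6% and 37.4% of the tested genes with at least 5 CPM in GM. The median log2 fold change of the 85 was -1.97 in SFB and -3.56 in DMEM, beside -0.02 and 0.00046 over all genes tested. The SFGM libraries were used in choosing the genes, which favours a fall in both comparisons, and the comparisons share those libraries.

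The depth of the fall differed from medium to medium. In DMEM 77 of the 85 genes were at or below 1/4 of SFGM and 59 at or below 1/8, and in SFB 45 and 21 were. Among all tested genes with at least 5 CPM in GM, 3.58% were at or below 1/4 of SFGM in DMEM and 1.19% in SFB, and 1.48% and 0.347% at or below 1/8. The SFGM libraries helped choose the 85 genes and are the reference for all these levels, which favours low values in the 85. The background genes were not chosen in this way. Genes stood at a median of 8.08% of SFGM in DMEM, with quartiles of 5.74% and 14.0%, and at a median of 23.5% in SFB, with quartiles of 12.7% and 33.6%. The highest value in SFB was 49.8% of SFGM, so in CPM on library totals each of the 85 lost more than 1/2 of its SFGM level. With the TMM scaling of the test, the smallest fall in SFB had a log2 fold change of -0.89, which is less than a loss of 1/2. The highest value in DMEM was 110% of SFGM in CPM, in ENSBTAG00000021190.

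DMEM against SFB is the comparison in which no library had been used to choose the genes. Both groups left SFGM for 72 h without serum, and they differ in the medium. DMEM cells were in a differentiation medium on a DMEM base, and SFB cells in the base medium alone. The base and the additions for differentiation can both differ, and they cannot be told apart in this comparison. Of the 85 genes, 50 were lower in DMEM than in SFB, 10 were higher and 25 did not pass the edgeR quasi-likelihood test (adjusted p under 0.05). Among all 14637 genes tested, 20.1% were called lower and 20.8% higher, and among the 10376 with at least 5 CPM in GM 23.9% and 18.9%. The log2 difference had a median of -1.26 and quartiles of -2.12 and -0.07 in the 85 genes, beside medians of -0.0015 over all genes tested and -0.03 over those with at least 5 CPM in GM. With the 2 genes that had no count in one of the groups set at their bounds, and 1 with no count in either left out, the median was -1.28. Every DMEM library lay below every SFB library for 49 of the 85 genes, against 18% of all genes tested, and above for 10, against 24.4%.

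**Figure D2:**
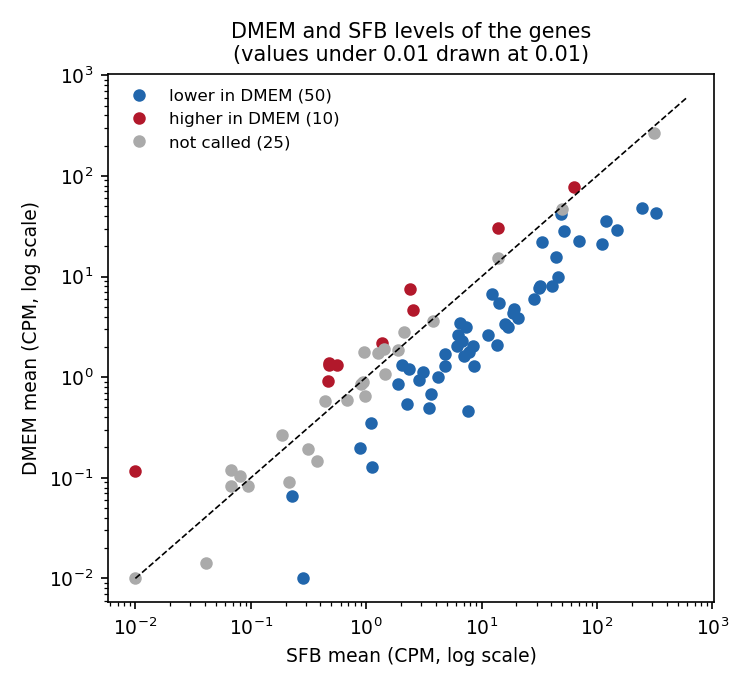
Mean level in DMEM (vertical axis, CPM, log scale) against mean level in SFB (horizontal axis, CPM, log scale) for the 85 genes, with values under 0.01 CPM drawn at 0.01. Blue points passed the test as lower in DMEM (50), red points as higher (10) and grey points were not called (25), and the dashed line marks equal levels. Most genes above 2 CPM in SFB lie below the line.

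The size of this difference and the share of genes called both rested on the limits that chose the genes. The 36 genes at or below 1/8 in both differentiation media had a median log2 difference of -0.11. Of these, 12 were lower and 7 higher in DMEM than in SFB, beside 23.9% and 18.9% of all tested genes with at least 5 CPM in GM. The 173 genes that met the serum limit but missed the serum-free one had a median of -1.87, with 155 lower (89.6%) and 5 higher (2.89%). A lower level in DMEM than in SFB was thus not particular to the 85 genes. With only the DMEM and SFB libraries in the fit, 72 of the 85 passed the expression filter, and 46 of them were lower and 5 higher, against 14.1% and 15% of the 13853 genes then tested.

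The 50 genes that were lower in DMEM than in SFB held 75.9% of the summed level of the 85 in GM. Of these 50, 38 had at least 20 CPM there. Their median level was 5.10% of GM in DMEM and 22.8% in SFB, beside 5.44% in DM, 15.3% in SFDM and 71.0% in SFGM. The DMEM mean stood at a median of 96.3% of the DM mean, with quartiles of 85.6% and 119%, and was below it in 30 of the 50. In 46 of the 50 the serum-free media were ordered with DMEM lowest, SFDM between and SFB highest. The gene with the third most reads of the 85 shows it, at 43.4, 51.3 and 52.8 CPM in DM, against 1045, 989 and 927 in GM, and at 176, 174 and 185 CPM in SFDM, 38.8, 42.9 and 46.3 in DMEM and 311, 342 and 318 in SFB, against 781, 724 and 799 in SFGM. These values describe genes picked by the comparison with SFB and were not tested further. A low SFDM level had also been required of all 85, and SFDM was below SFB in 76 of them. The order of the serum-free media is therefore partly set by the choice of genes.

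The 10 genes that were higher in DMEM than in SFB and the 25 that were not called had fewer reads in GM. Their median GM levels were 11.8 and 11.7 CPM, compared with 36.3 CPM for the 50. The 10 stood at medians of 18.02% of GM in DMEM and 6.31% in SFB, beside 8.01% in DM and 4.75% in SFDM, and SFDM was the lowest of the 3 serum-free media in 7 of them. The 10 were picked for a higher level in DMEM than in SFB, and a low SFDM level had been required of them. The place of SFDM as the lowest is therefore largely set by these choices. The 25 stood at medians of 7.21% of GM in DMEM and 6.53% in SFB, beside 5.17% in DM and 3.801% in SFDM. Of the 15 genes that were higher in SFGM than in GM, 9 were among these 25 and 3 among the 10. A gene that was not called is not shown to be equal in the media. The calls of the 10 also depended on the fit, which held the libraries of all media. With only the DMEM and SFB libraries in the fit, 72 genes of the list passed the expression filter, and 5 were called higher. Across the 82 genes with counts in both groups, the log2 ratio of DMEM to SFB and the GM level had a Spearman's rho of -0.42, where rarer genes also have noisier ratios.

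**Figure D3:**
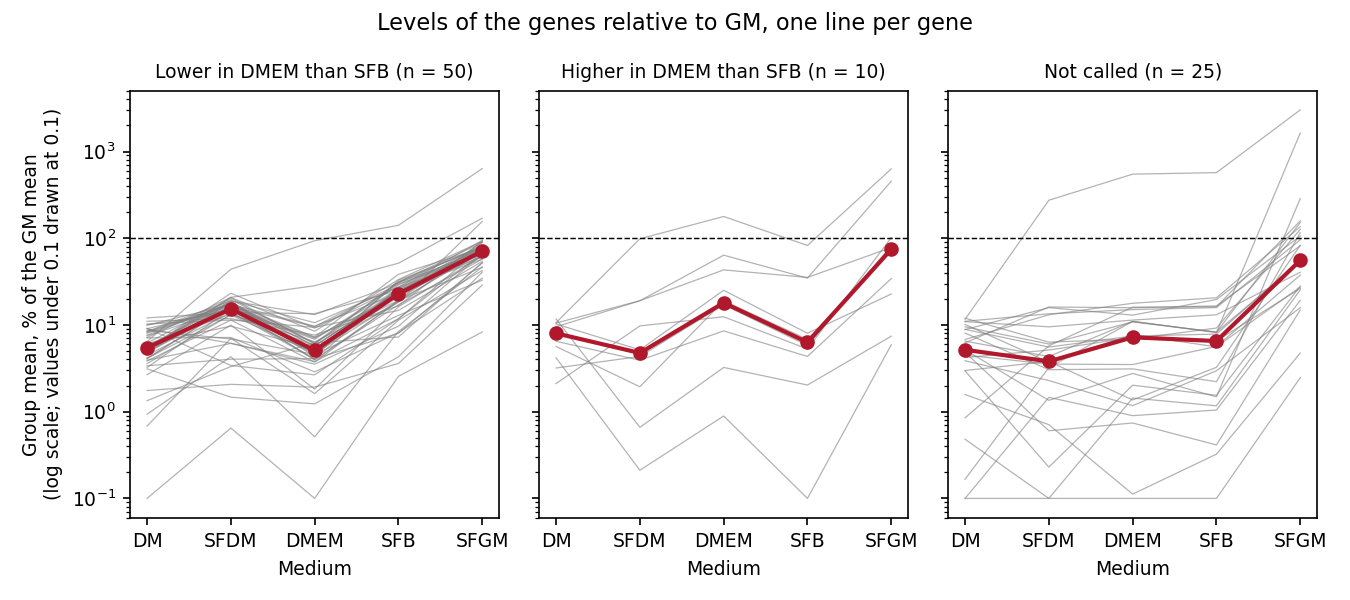
Group mean as percent of the GM mean (vertical axis, log scale, values under 0.1% drawn at 0.1%) in DM, SFDM, DMEM, SFB and SFGM for each of the 85 genes, in panels by the outcome of the test of DMEM against SFB. Grey lines are genes, red points are the panel's medians, and the dashed line is the GM level. In the left panel the medians are 5.10% in DMEM and 22.8% in SFB, and in the middle panel 18.02% and 6.31%. The panels use the calls from the fit that held the libraries of all media.

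ENSBTAG00000024947 was among the genes with the largest called differences between DMEM and SFB. It had 0.857, 0.800 and 0.893 CPM in DM, against 91.8, 86.5 and 94.1 in GM. It had 3.71, 3.26 and 4.76 CPM in SFDM, 0.499, 0.518 and 0.380 in DMEM and 7.09, 9.08 and 6.77 in SFB, against 42.3, 41.8 and 42.8 in SFGM. No groups overlapped, and DMEM was the lowest of the 6, below DM. Its level was 16.4-fold lower in DMEM than in SFB (log2 difference -4.06 ± 0.18, SE, edgeR adjusted p = 1.98e-11).

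ENSBTAG00000038361 was the other identifier named for a lower level in DMEM. It had no count in any DM library, against 11.3, 10.8 and 11.2 CPM in GM. It had 0.0619, 0.108 and 0.0462 CPM in SFDM, no count in any DMEM library and 0.256, 0.244 and 0.352 CPM in SFB, against 0.951, 0.944 and 0.869 in SFGM. With 0 counts in DMEM and 21 in SFB, it was 7.28-fold lower in DMEM when DMEM is set at the floor of 3 counts (edgeR adjusted p = 1.39e-05). The counting error of the 21 is left out of this ratio. It entered the test through its level in other media, and did not pass the expression filter on the DMEM and SFB libraries alone.

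ENSBTAG00000021190 did not fall in DMEM. It had 2.88, 3.47 and 2.77 CPM in DM, against 29.7, 32.8 and 26.5 in GM. It had 1.55, 1.43 and 1.62 CPM in SFDM, 6.66, 6.98 and 8.70 in DMEM and 2.86, 2.48 and 1.80 in SFB, against 6.95, 6.68 and 6.60 in SFGM. The DMEM and SFGM libraries overlapped (log2 difference 0.21 ± 0.14, SE, edgeR adjusted p = 0.190), whereas DMEM lay 3.13-fold above SFB (log2 difference 1.60 ± 0.15, SE, edgeR adjusted p = 2.69e-07). This gene was 1 of the 9 already low in SFGM, at 22.7% of GM. The others of the 9 were all called lower in DMEM than in SFGM.

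ENSBTAG00000008428 was detected in DMEM but not in SFB, on few reads. It had 0.467, 0.222 and 0.936 CPM in DM, against 11.2, 12.2 and 15.4 in GM. It had 0, 0.0358 and 0.0462 CPM in SFDM, 0.143, 0.120 and 0.0845 in DMEM and no count in any SFB library, against 0.703, 0.805 and 0.790 in SFGM. With 9 counts over the DMEM libraries and 0 over those of SFB, DMEM was 2.83-fold higher when SFB is set at the floor of 3 counts (edgeR adjusted p = 0.0193). The counting error of the 9 is left out of this ratio. This identifier too did not pass the expression filter on the DMEM and SFB libraries alone. Without DMEM replicate A it no longer passed (edgeR adjusted p = 0.0516).

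**Figure D4:**
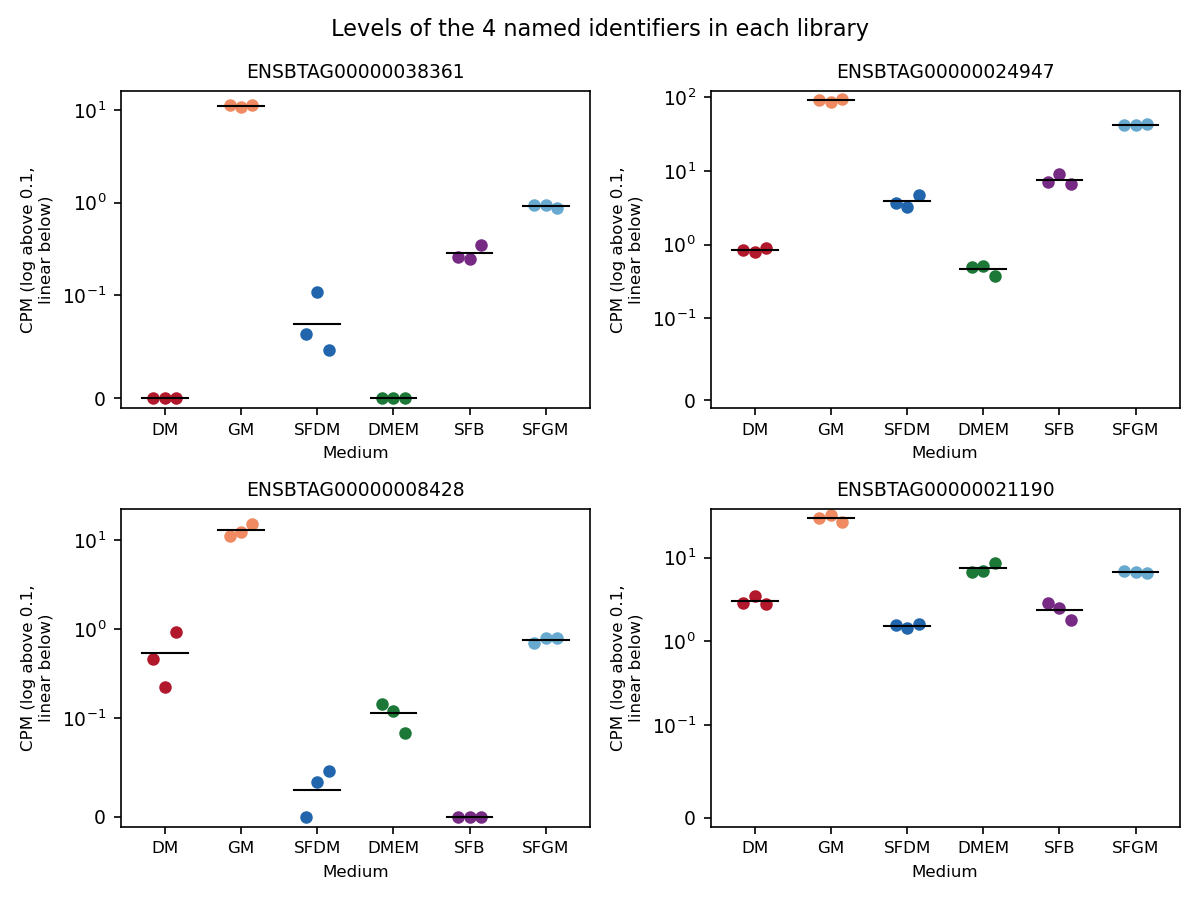
Level of the 4 named identifiers in each library (vertical axis, CPM, log scale above 0.1 and linear below), by medium. Points are libraries A, B and C from left to right and bars are group means (n = 3). DMEM lies below SFB for ENSBTAG00000038361 and ENSBTAG00000024947, and higher than SFB for ENSBTAG00000008428 and ENSBTAG00000021190.

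The end points with and without serum can be set side by side, although DM and SFDM both chose the genes. Of the 4 groups at 72 h, DM had the lowest mean for 34 genes, DMEM for 34, SFDM for 14 and SFB for 3. SFB had the highest for 58, DMEM for 13, DM for 12 and SFDM for 2. The DMEM mean was at a median of 97.7% of the DM mean, with 44 genes below DM and 40 above it, while SFDM stood at a median of 193% of DM and SFB at 300%. SFDM was below SFB in 76 of the 85 genes, at a median of 63.7% of the SFB level, and this was not tested because a low SFDM level had been required.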

How the data were processed

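Per the labels' protocols, poly(A) RNA went into stranded mRNA libraries that were sequenced at 75 bp. The authors deposited raw counts per Ensembl bovine identifier. STAR 2.7, featureCounts and bosTau9 are named in the submitters' processing notes. Neither the annotation release nor the strand setting is given in the sources used here, so reads of overlapping, antisense or near-identical genes could be misassigned. Every column matched 1 sample by its label. No replicate pair agreed within sampling noise (chi-square per degree of freedom 1.90 to 44.2), and all 18 libraries were kept.

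Levels are CPM on library totals, as the choice of genes requires. Tests used R 4.3.3 and edgeR 4.0.16. filterByExpr (minimum count 10, minimum total 15) kept 14637 genes, among them all 85, and TMM scaling gave factors of 0.951 to 1.07. The quasi-likelihood fit held all 18 libraries, with 1 mean for each medium. The 3 two-sided contrasts were adjusted by Benjamini-Hochberg over all genes tested, with a threshold of 0.05. P-values measure the spread between these replicates. DM against GM and SFDM against SFGM chose the genes and were not tested. On simulated counts for DMEM against SFB with 14637 genes, genes changed 1.5-fold were recovered in 62% of cases and those changed 2-fold in 70%. The share was 90% for 4-fold changes and 100.0% for 8-fold changes. False calls made up 5.85% of the total. In the simulation 50 genes were changed at each fold, and all other genes had the same mean in every group. Far more genes were called in the data, and the 85 genes were low in DMEM and SFB. The recovery may therefore differ for them.

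The reference table of ARS-UCD2.0 genes held none of the identifiers (0 matched), so 21 symbol lists with 416 genes were not analysed here, nor were sequences. The identifiers named are the 2 with the largest fall and the 2 with the largest rise in DMEM against SFB among those called with no overlap of libraries. The genes and lists were chosen with earlier results of these data known. Alternatives were RLE scaling, library totals alone, no or a stricter filter, DESeq2 1.42.0, only the groups compared, the replicate letter as a block, leaving out each library, and other limits for choosing the genes.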

Additional observations from a re-analysis of the deposited data

How the results depend on the processing

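No called gene among the 85 changed sign in DMEM against SFB, DMEM against SFGM or SFB against SFGM under any alternative. In the following counts the choice of the 85 genes was kept fixed. The number lower in DMEM than in SFB was 46 to 51 over the 7 scaling, filter, tool, block and sample alternatives. It was 48 to 50 with each library left out. The number higher was 5 to 11 and 7 to 12, respectively. The 5 came from fitting only these groups, where the median log2 difference was -1.52 and 72 genes were tested. Against SFGM, 83 or 84 genes fell in DMEM and 84 or 85 in SFB under the same 7 alternatives. Scaling by library totals alone moved the median of all genes in SFB against SFGM by over 0.1, to -0.14, and the share of rises among calls to 38.3%, against 48.9% with TMM, yet all 85 were still lower.

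Changing the limits changed the list itself. With 1/4 in both media there were 142 genes, of which 93 were called in DMEM against SFB, 21 of them higher, with a median of -0.55; 140 fell in DMEM against SFGM, with a median of -2.89, and 142 in SFB against SFGM. With 1/8 in both there were 36 genes, of which 19 were called in DMEM against SFB, 12 of them lower, with a median of -0.11; 36 fell in each comparison with SFGM, with a median of -3.03 in SFB. Among all tested genes with at least 5 CPM in GM, 23.9% were called lower and 18.9% higher in DMEM than in SFB. Of the same genes, 37.4% fell in DMEM and 35.6% in SFB against SFGM. Leaving out a library gave 76 to 89 genes. A GM minimum of 10 CPM gave 66 genes and one of 1 CPM gave 121. With CPM on TMM-scaled totals, the scaling used in the tests, 58 genes met the limits, and all 58 were among the 85. The list thus depends on the scaling, and the calls in DMEM against SFB were not counted for the 58 genes alone.

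By the criterion that all 3 same-letter correlations exceed 0.1, the replicate letters paired the libraries in none of the 3 comparisons, narrowly so in SFB against SFGM. Correlations of same-letter deviations ran from -0.59 to -0.02 in DMEM against SFB and from -0.32 to 0.002 in DMEM against SFGM. They ran from 0.093 to 0.336 in SFB against SFGM, where 5 of 6 libraries lay closest to their own letter. With the replicate letter as a block, 59 genes were called in DMEM against SFB, 84 in DMEM against SFGM and 85 in SFB against SFGM. The cause of these changes was not tested. Genes at a few counts per library, such as ENSBTAG00000008428, are limited by depth.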
